A study of Homo sapiens with 6 samples.

Results

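The 38 genes described here encode the folding machinery of the endoplasmic reticulum and the unfolded protein response that controls it: 5 sensors and transcription factors, 13 chaperones, co-chaperones and lectins, 6 disulfide isomerases and oxidases, 7 degradation factors and 7 translocation factors. They were chosen by symbol, and all 38 were found among the 30178 human Ensembl gene IDs measured. RNA sequencing covered 6 libraries of CAL27, an established oral carcinoma line that the labels call adenosquamous, kept in DMEM with serum under the selection drug G418. The stable lines carried an empty vector, constitutively expressed wild-type MB21D2, or constitutively expressed MB21D2 with the Q311E substitution, and the labels describe the introduced proteins as GFP fusions. Each line gave 2 libraries, A and B. How many clones a line holds is not labelled. Nor is it labelled that libraries A and B came from cultures grown apart, and the tests therefore see only library-to-library spread, possibly technical.

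Proteins that enter the secretory pathway fold in the endoplasmic reticulum with the help of chaperones, lectins that read their sugar chains, and enzymes that form disulfide bonds. When unfolded protein builds up, 3 sensors in the membrane respond: IRE1 (gene ERN1), which splices XBP1 mRNA, PERK (gene EIF2AK3), which slows translation, and ATF6, which is cut and travels to the nucleus. Spliced XBP1 and cut ATF6 raise the transcription of chaperone and degradation genes, in part through promoter motifs called ER stress response elements. FPKM, the read count scaled to gene length and library total, does not separate spliced from unspliced XBP1 mRNA, so sensor activity was not measured here.

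The promoter motifs are shown first because expression values played no part in finding them. The genes were chosen as parts of this response and the motifs as its elements. Higher shares among these genes are therefore a description and no separate support. RefSeq promoter windows on GRCh38.p14 (250 bases before to 50 after a transcript start) were found for 36 of the 38 genes, all except DERL1 and PDIA3. Both strands were searched for ERSE (CCAAT, any 9 bases, CCACG), ERSE-II (ATTGG, any base, CCACG) and the cores TGACGTGG and TGACGTGA, of which the first lies within the motif known as UPRE. ERSE was present in 8 of the 36 genes (22.2%) and in 25 of 27305 genes in the whole table (0.0916%), these 8 included. ERSE-II was present in 3 of the 36 (8.33%) and in 19 of all genes (0.0696%). The core TGACGTGG was present in DNAJC10, HYOU1, SRP19 and SSR3, against 0.927% of all genes, and in HYOU1 it overlaps an ERSE-II. TGACGTGA was in 0 of the 36 and in 0.52% of all genes.

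The sites below are from 4 genes whose RNA was lower in the wild-type line (XBP1, CALR, HERPUD1, SDF2L1), from HSPA5, which was higher in the Q311E line, and from 2 genes called in no comparison (CANX, HYOU1). Each is printed 5′ to 3′ on the gene's own strand with the motif in capitals. A motif that lies on the other strand reads in reverse, from CGTGG to ATTGG or CCAAT.
XBP1, ERSE, chr22:28800598-28800626, minus strand: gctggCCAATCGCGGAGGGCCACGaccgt
HSPA5, ERSE, chr9:125241386-125241414, minus strand: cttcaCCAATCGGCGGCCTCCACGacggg
CALR, ERSE in reverse, chr19:12938379-12938407, plus strand: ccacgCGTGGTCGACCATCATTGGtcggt
CANX, ERSE, chr5:179698773-179698801, plus strand: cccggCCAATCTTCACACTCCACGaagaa
HERPUD1, ERSE-II, chr16:56932016-56932044, plus strand: cggacgccgATTGGGCCACGttgggagag
SDF2L1, ERSE-II in reverse, chr22:21642105-21642133, plus strand: cctcggaagCGTGGACCAATcaaaaccct
HYOU1, ERSE-II in reverse, chr11:119057265-119057293, minus strand: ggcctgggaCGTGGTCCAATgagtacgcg

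The ERSE of HSPA5 begins 66 bases before the RefSeq start. The 200 bases directly upstream of that start (chr9:125241344-125241543, minus strand), with the complete ERSE in capitals, read:
HSPA5 promoter: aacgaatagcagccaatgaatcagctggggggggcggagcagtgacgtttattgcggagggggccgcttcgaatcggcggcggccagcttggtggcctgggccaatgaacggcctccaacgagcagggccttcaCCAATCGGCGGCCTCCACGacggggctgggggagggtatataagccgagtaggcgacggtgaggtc

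Library totals behind the deposited values ran from 20645409 to 24147306 reads. Recovered reads per gene and library ran from 110 for ERO1B to 41095 for HSPA5 over the 38 genes. MB21D2 itself stood at 7.15 and 8.31 FPKM in the vector libraries, 104 and 106 in the wild-type libraries, and 21.2 and 32.8 in the Q311E libraries, so the substituted form and a lower MB21D2 RNA level come together. Markers fixed for squamous epithelium all had a mean of at least 1 FPKM (7 of 7). Their sum was 1306 to 1328 FPKM in vector, 1002 to 1015 in wild type and 1185 to 1233 in Q311E libraries. KRT6A had 109 and 104 FPKM in vector, 7.9 and 9.49 in wild type, and 16.7 and 15 in Q311E libraries, whereas EPCAM and CDH1 were higher in wild type than in vector. Of the plasma cell markers (4 of 6 found in the table), JCHAIN reached at most 0.028 FPKM, and the list's sum, nearly all from SDC1, which squamous epithelium also expresses, was 124.7 to 131.5 FPKM in vector, 120.5 to 120.7 in wild type and 83.9 to 112 in Q311E libraries. The leukocyte marker PTPRC reached at most 0.00478. The summed leukocyte markers were 1.83 to 3.19 FPKM in vector, 2.40 to 2.58 in wild type and 4.93 to 18.8 in Q311E libraries, nearly all from CD14, and the summed endothelial markers 20.1 to 21.5, 15.5 to 15.9 and 22.7 to 35.6, nearly all from CDH5. The part of these markers in the results was not tested.

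As a group, the 38 genes were lowest in the wild-type line. Their summed level was 2482 and 2526 FPKM in the vector libraries, 1987 and 1996 in the wild-type libraries, and 2806 and 2533 in Q311E A and B. This was 0.947% and 0.904% of all summed FPKM in the vector line, 0.763% and 0.767% in the wild-type line, and 1.10% and 0.907% in the Q311E line. CALR and HSPA5 were the top 2 of the 38 by FPKM in every library. In bulk RNA, fewer cells with a transcript and less of it per cell cannot be told apart.

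**Figure D1:**
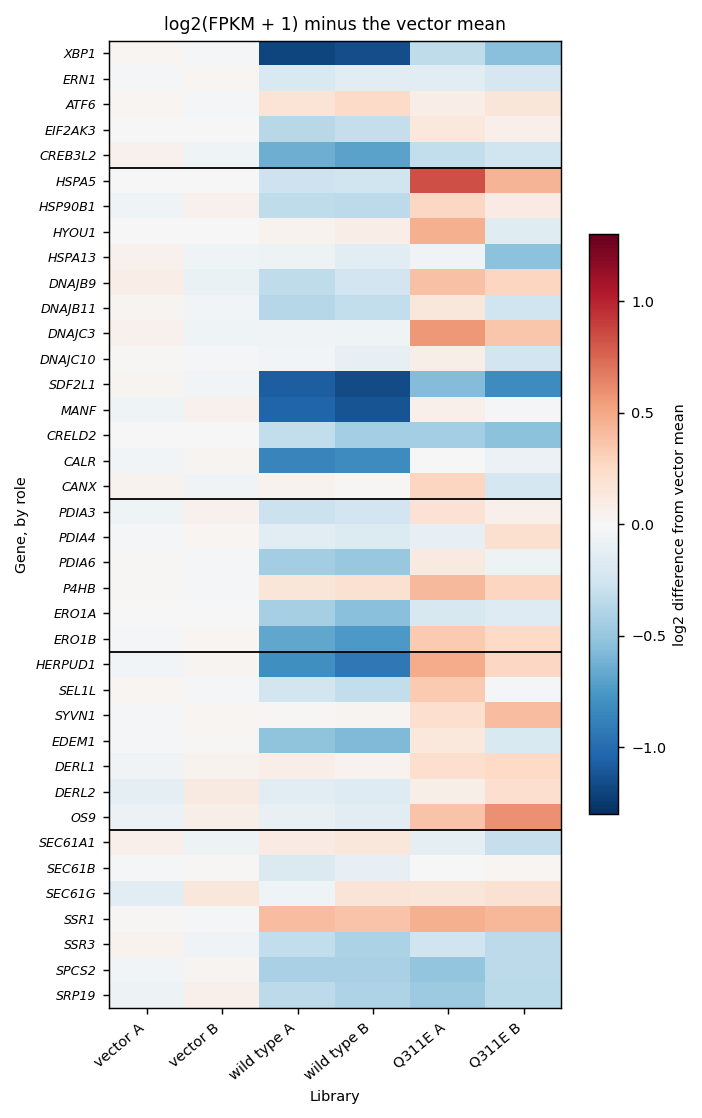
Heat map of log2(FPKM + 1) minus the mean of the 2 vector libraries for the 38 genes (rows, grouped by role, with black lines between roles) in the 6 libraries (columns). Blue is below and red above the vector mean. XBP1, SDF2L1 and MANF are the darkest blue in both wild-type libraries, and HSPA5 is the darkest red in Q311E A.

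The comparison of wild type with vector shows what accompanied expression of the wild-type protein. The factor XBP1, the folding proteins SDF2L1, MANF and CALR and the degradation factor HERPUD1 fell the most on the log2 scale, to between 0.428 and 0.559 times their vector mean. By FPKM fold the low-level ERO1B also fell to 0.441 times, which the added 1 makes smaller on the log2 scale. Of the 38 genes, 12 fell (31.6%) and 1, the translocon-associated SSR1, rose (2.63%). Over all 11481 genes tested 8.76% were called lower and 3.54% higher. The median of the 38 log2 differences was -0.27, against -0.05 for all genes tested. Tests used limma on log2(FPKM + 1) in 1 fit of all 6 libraries, adjusted over all genes tested, with a call at adjusted p under 0.05. With each library centred on its median, 9 of the 38 were lower and 1 higher, beside 5.9% and 5.37% of all genes tested. Of all called genes 47.6% were then higher, against 28.8% as deposited.

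These calls rest on both libraries of each group. Without vector A, vector B, wild type A or wild type B, limma called 0 of the 38 genes, with 13 to 15 lower and 1 higher at an unadjusted p under 0.05 and 7 to 11 genes called in the whole table. Without Q311E A or Q311E B, 22 of the 38 were called lower and 3 higher, in fits that called 28.5% of all genes lower and 17.4% (without A) or 17.7% (without B) higher. The SD of the log2 difference between A and B over all genes tested was 0.436 for Q311E, 0.192 for vector and 0.145 for wild type. All 13 called genes kept their direction in the 17 alternatives, apart from ERO1B in the 1 alternative whose filter left it out. Alternatives that change only the filter, the variance prior, the block or the groups fitted leave the log2 difference as it was. The 2 groups of each called gene did not overlap, so leaving out 1 library could not reverse it. The kept direction therefore says little.

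The series' design text names Q311E against wild type as its question. The degradation factor HERPUD1, the secreted folding protein MANF, the oxidase ERO1B, the chaperone HSPA5 and the lectin CALR were the 5 largest rises, from 1.75 to 3.02 times the wild-type mean. Of the 38 genes, 17 rose (44.7%), beside 17.5% of all genes tested, and 0 fell, beside 10.1%. The 17 came from every role except translocation, where 0 of 7 were called. The gene SEC61A1 was lower at an unadjusted p under 0.05, and limma-voom on recovered reads called that gene (named after its values were seen; adjusted p = 0.0338, and 0.0501 in the limma fit). The median of the 38 differences was 0.29, against 0.05 for all genes tested.

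Centring each library on its median shifted the median of all genes in this comparison by -0.11. With that scaling 13 of the 38 were higher and 1 lower, beside 12.4% and 19.1% of all genes tested. Of all called genes 39.3% were then higher, against 63.4% as deposited. With either wild-type library left out (A or B) limma called 0 of the 38, with 15 or 16 higher and 0 lower at an unadjusted p under 0.05, and 0 genes in the whole table. Without vector A or vector B it called 6 higher, beside 6.35% or 6.37% of all genes. Without Q311E A it called 21 higher and 4 lower, beside 32.7% and 28.0% of all genes, and without Q311E B 23 higher and 1 lower, beside 24.4% and 16.3%. With only these 2 groups in the fit it called 6 higher and 0 lower, beside 6.28% and 2.23% of all genes. All 6 were among the 17, and the lost calls named gene by gene below are not a full account. The 17 called genes kept their direction in every alternative that tested them. This too says little, since many alternatives leave the difference as it was and the groups of each called gene did not overlap.

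The comparison of Q311E with vector held calls in both directions. HSPA5, DNAJC3, P4HB, OS9 and SSR1 rose, by 1.28 to 1.58 times, and XBP1, SDF2L1, CRELD2 and SPCS2 fell, to between 0.617 and 0.741 times the vector mean. That is 5 of 38 higher (13.2%) and 4 lower (10.5%), close to the 8.67% and 9.28% over all genes tested, so the counts say little about these genes as a group. The median of the 38 differences was 0.04, against 0.00 for all genes tested. The median was -0.03 without Q311E A and 0.12 without Q311E B, so its sign rests on 1 library. With TPM scaling 2 of the 38 were higher and 2 lower, beside 7.67% and 5.5% of all genes tested. Of all called genes 58.2% were then higher, against 48.3% as deposited. Limma called 0 of the 38 without any 1 vector or wild-type library (5 to 8 higher and 5 or 6 lower at an unadjusted p under 0.05), 9 higher and 11 lower without Q311E A (23.2% and 26.4% of all genes), and 13 higher and 8 lower without Q311E B (19.5% and 19.3%). With only these 2 groups in the fit it called 0, beside 1.28% higher and 1.07% lower of all genes. There limma gave 8 of the 38 higher and 6 lower at an unadjusted p under 0.05, so the call of each gene below was lost. Without a filter on low values limma called 1 higher and 2 lower, beside 2.12% and 1.89% of all genes. Each pair of comparisons shares the libraries of 1 group, so their values stand side by side and are not independent.

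**Figure D2:**
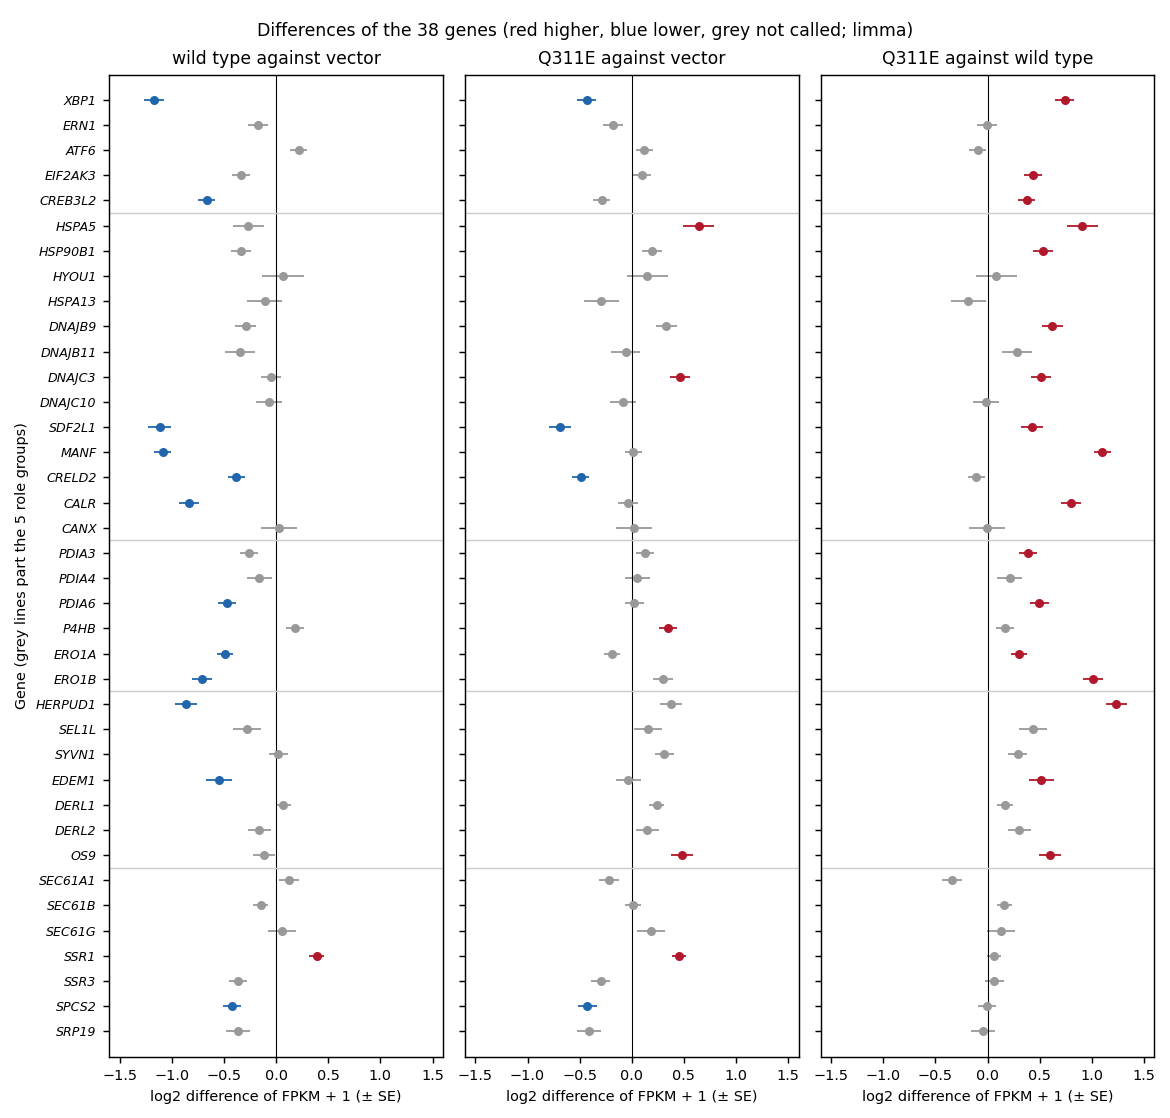
Log2 differences of FPKM + 1 (points) with their SE (bars) for the 38 genes, in roles from sensors at the top to translocation at the bottom, for the 3 comparisons. Red genes were called higher and blue lower by limma at adjusted p under 0.05. The left panel holds 12 blue points and 1 red, the right panel 17 red and 0 blue.

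Among the sensors and transcription factors, XBP1 (ENSG00000100219, GRCh38 chromosome 22, 28794555 to 28800597) varied the most. Its level was 36.8 and 35.6 FPKM with empty vector, 15.2 and 15.7 in the wild-type libraries, and 28.6 and 24.5 in Q311E A and B. The 3 lines did not overlap, with the vector highest and the wild type lowest. The log2 difference was -1.17 ± 0.09 (SE) for wild type against vector (adjusted p = 0.00685), -0.43 ± 0.09 for Q311E against vector (adjusted p = 0.0349) and 0.74 ± 0.09 for Q311E against wild type (adjusted p = 0.0089). The call against vector in the Q311E line was lost without a filter on low values (adjusted p = 0.0754), with TPM scaling (0.109), with only those 2 groups in the fit (0.116) and with the trend on exon length removed (0.0516).

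CREB3L2, a membrane-bound transcription factor released by cleavage, followed the same order. It had 9.37 and 8.65 FPKM in vector, 5.43 and 5.19 in wild type, and 7.02 and 7.36 in Q311E libraries, again without overlap. It fell in the wild-type line (-0.66 ± 0.08, adjusted p = 0.0138) and was higher in Q311E than in wild type (0.38 ± 0.08, adjusted p = 0.0282), while Q311E against vector gave -0.29 ± 0.08 (adjusted p = 0.0677, and 0.0488 with median scaling). The call against wild type was lost without a filter on low values (adjusted p = 0.0556), with TPM scaling (0.0669), median scaling (0.0549) and quantile normalization (0.067), and with only those 2 groups in the fit (0.0735).

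The 3 sensor genes moved less. EIF2AK3, the PERK kinase, had 3.57 and 3.60 FPKM in vector, 2.57 and 2.68 in wild type, and 4.04 and 3.79 in Q311E libraries. It was higher in Q311E than in wild type (0.44 ± 0.09, adjusted p = 0.0219), and the difference of wild type from vector was -0.34 ± 0.09 (adjusted p = 0.0618, and 0.0123 with only those 2 groups in the fit). The call against wild type was lost with quantile normalization (log2 0.24, adjusted p = 0.0855), with only those 2 groups (0.0687) and without a filter on low values (0.05003). ERN1, which encodes the IRE1 nuclease that splices XBP1, had 2.15 and 2.25 FPKM in vector, 1.78 and 1.89 in wild type, and 1.90 and 1.76 in Q311E libraries, and ATF6 had 5.56 and 5.34, 6.30 and 6.67, and 5.83 and 6.19. Neither was called in any comparison of the fit over all 6 libraries, with differences from -0.18 to 0.21 and adjusted p from 0.145 to 0.982. ATF6 in wild type against vector (0.21) was called with only those 2 groups in the fit (adjusted p = 0.0388), with Q311E A (0.0393) or Q311E B (0.0396) left out.

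The 13 chaperones, co-chaperones and lectins split into several patterns. SDF2L1, a stress-induced partner of the chaperone complex, had 76.2 and 72.8 FPKM in vector, 35.0 and 32.6 in wild type, and 50.01 and 41.9 in Q311E libraries. It fell in both lines against vector (-1.12 ± 0.11, adjusted p = 0.00856, and -0.69 ± 0.11, adjusted p = 0.0157) and was higher in Q311E than in wild type (0.43 ± 0.11, adjusted p = 0.0385). That last SDF2L1 call was lost under 5 alternatives other than leaving out a library, with log2 0.24 and adjusted p = 0.235 once the trend on exon length was removed. CRELD2, a secreted stress-induced protein, had 14.99 and 15.07 FPKM in vector, 11.8 and 10.8 in wild type, and 10.8 and 10.1 in Q311E libraries. It fell against vector in both lines (-0.38 ± 0.08, adjusted p = 0.0423, and -0.49 ± 0.08, adjusted p = 0.0188), with -0.11 ± 0.08 between them (adjusted p = 0.356). The wild-type call of CRELD2 was lost without a filter on low values and with TPM scaling, and its Q311E call with TPM scaling (adjusted p = 0.0515).

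MANF and CALR were lowest in the wild-type line and overlapped between the vector and Q311E lines. MANF, a small protein retained in the endoplasmic reticulum and secreted under stress, had 43.3 and 46.6 FPKM in vector, 21.3 and 20.03 in wild type, and 46.9 and 44.0 in Q311E libraries. CALR, the lectin calreticulin, had 467 and 492 FPKM in vector, 264 and 272 in wild type, and 483 and 455 in Q311E libraries. For both genes the wild-type libraries lay below all 4 others. MANF fell by 1.09 ± 0.08 in wild type against vector (adjusted p = 0.00604) and CALR by 0.84 ± 0.10 (adjusted p = 0.0115). Against wild type, Q311E was higher by 1.10 ± 0.08 for MANF (adjusted p = 0.00318) and by 0.80 ± 0.10 for CALR (adjusted p = 0.00776). The CALR call in wild type against vector was lost without a filter on low values (adjusted p = 0.0561). Q311E against vector gave 0.02 ± 0.08 for MANF and -0.03 ± 0.10 for CALR (adjusted p = 0.908 and 0.833). CANX, the membrane-bound lectin related to calreticulin, had 156 and 147 FPKM in vector, 156 and 153 in wild type, and 184 and 129 in Q311E libraries, and its groups overlapped in every comparison.

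HSPA5, the chaperone BiP that also holds the sensors inactive, was highest in the Q311E line. It had 274 and 275 FPKM in vector, 228 and 228 in wild type, and 493 and 373 in Q311E A and B. It rose against vector (0.64 ± 0.15, adjusted p = 0.0397) and against wild type (0.91 ± 0.15, adjusted p = 0.0149), and wild type against vector gave -0.27 ± 0.15 (adjusted p = 0.271). The call against vector was lost without a filter on low values (adjusted p = 0.112), with TPM scaling (0.0663), with quantile normalization (0.0604) and with only those 2 groups in the fit (0.125), and the call against wild type without the filter (0.0529) and with only those 2 groups (0.0528). HSP90B1, the chaperone GRP94, had 160 and 171 FPKM in vector, 131 and 130 in wild type, and 200 and 178 in Q311E libraries, and was called in Q311E against wild type (0.53 ± 0.10, adjusted p = 0.0184), but not without a filter on low values (0.0529) or with only those 2 groups in the fit (0.0589).

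Of the co-chaperones that carry a J domain, which drives the ATP cycle of BiP, DNAJC3 and DNAJB9 were higher in Q311E than in wild type. DNAJC3 had 11.3 and 10.5 FPKM in vector, 10.6 and 10.4 in wild type, and 16.6 and 14.3 in Q311E libraries, and rose against both (0.46 ± 0.10, adjusted p = 0.0327, and 0.51 ± 0.10, adjusted p = 0.0205). The DNAJC3 call against vector was lost without a filter on low values (adjusted p = 0.0719) and with TPM scaling (0.0792). DNAJB9 had 6.02 and 5.23 FPKM in vector, 4.25 and 4.56 in wild type, and 7.59 and 7.05 in Q311E libraries (0.62 ± 0.10 against wild type, adjusted p = 0.014). DNAJB11, DNAJC10, HYOU1, a large chaperone that also acts as an exchange factor for BiP, and HSPA13 were called in no comparison. In HYOU1 and HSPA13 the Q311E libraries lay apart, with 33.7 and 21.6 FPKM and 14.97 and 10.4 FPKM in A and B.

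**Figure D3:**
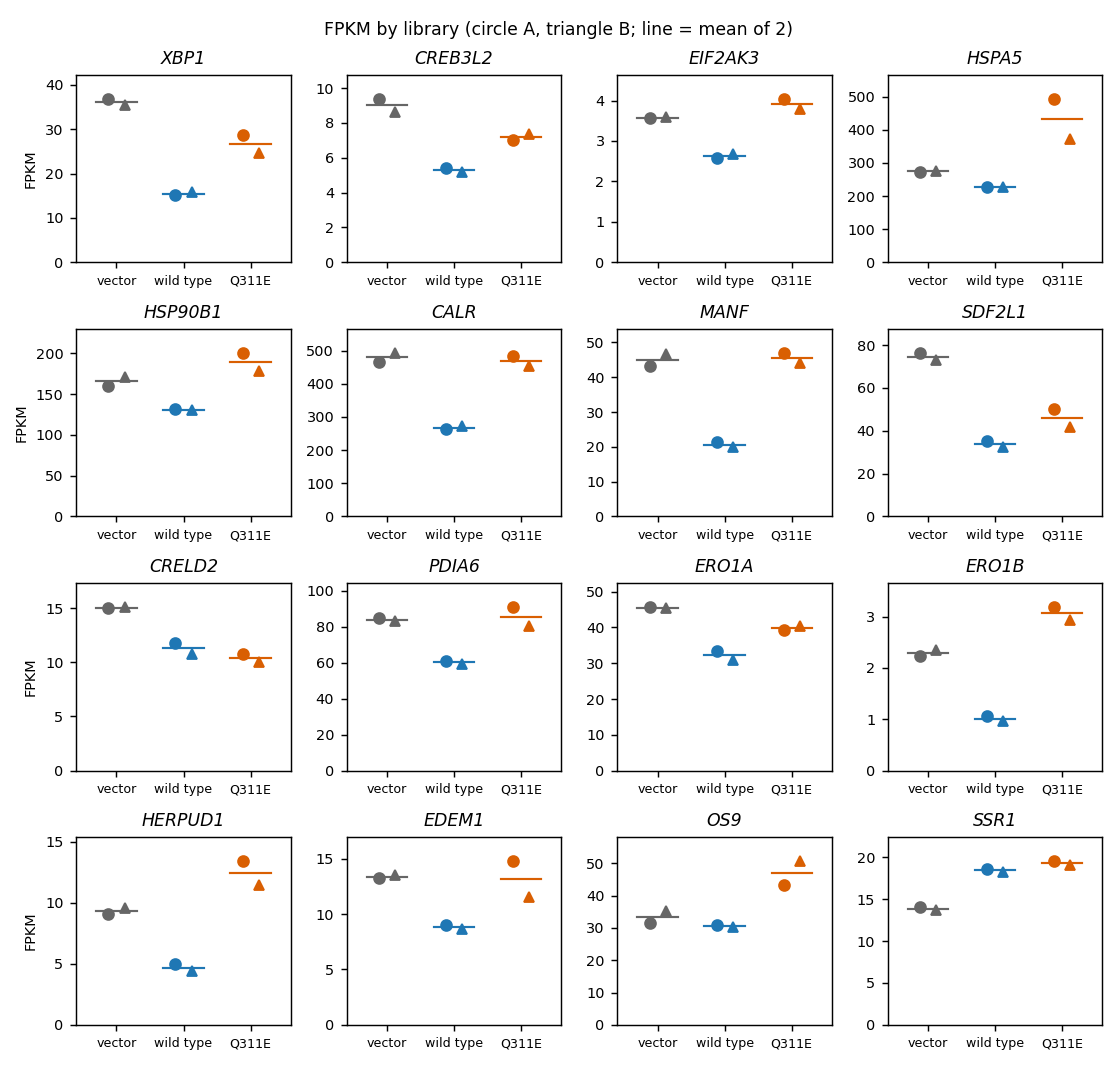
FPKM (vertical axes, from 0) of 16 of the genes in each library, with circles for library A, triangles for library B and lines for the mean of 2. The wild-type libraries are the lowest for XBP1, MANF, CALR, ERO1B and HERPUD1, and Q311E A and B lie furthest apart for HSPA5.

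Disulfide bonds are passed on by the isomerases of the PDI family, which the ERO1 oxidases recharge. ERO1B, the less abundant oxidase here, had 2.24 and 2.35 FPKM in vector, 1.06 and 0.962 in wild type, and 3.18 and 2.94 in Q311E libraries. It fell in wild type against vector (-0.71 ± 0.10, adjusted p = 0.0169), was 3.02 times higher in Q311E than in wild type (1.01 ± 0.10, adjusted p = 0.00514), and gave 0.30 ± 0.10 for Q311E against vector (adjusted p = 0.0894). Its call in wild type against vector was lost without a filter on low values (0.0564). The added 1 in log2(FPKM + 1) makes these differences smaller than the fold at so low a level. ERO1A had 45.6 and 45.4 FPKM in vector, 33.4 and 31.0 in wild type, and 39.1 and 40.5 in Q311E libraries, with no overlap between lines. It fell in wild type (-0.49 ± 0.07, adjusted p = 0.0199) and was higher in Q311E than in wild type (0.30 ± 0.07, adjusted p = 0.0383). The ERO1A call in wild type against vector was lost with TPM scaling.

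PDIA6, an isomerase that also limits sensor activity, had 84.9 and 83.0 FPKM in vector, 61.0 and 59.3 in wild type, and 90.8 and 80.2 in Q311E libraries. It fell in wild type (-0.47 ± 0.09, adjusted p = 0.0316) and was higher in Q311E than in wild type (0.50 ± 0.09, adjusted p = 0.0178). The first call was lost without a filter on low values (adjusted p = 0.0773), with TPM scaling (0.108) and with quantile normalization (0.059), and the second with TPM scaling (0.0545) and with only those 2 groups in the fit (0.0609). PDIA3, the isomerase that works with calreticulin and calnexin, was called in Q311E against wild type (0.39 ± 0.09, adjusted p = 0.0306), a call lost without a filter on low values (0.071), with TPM scaling (0.0785), with median scaling (0.0587) and with only those 2 groups in the fit (0.0794). P4HB, the classical disulfide isomerase, had 116 and 114 FPKM in vector, 129 and 132 in wild type, and 154 and 139.5 in Q311E libraries. Its rise in Q311E against vector (0.35 ± 0.09, adjusted p = 0.0469) was lost under 6 alternatives other than leaving out a library, with adjusted p up to 0.16. PDIA4 was called in no comparison and, unlike most of the group, was higher in Q311E B (167.5 FPKM) than in Q311E A (134 FPKM).

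Degradation factors return misfolded proteins to the cytosol for destruction. HERPUD1, a stress-induced scaffold of the ubiquitin ligase complex, had 9.065 and 9.58 FPKM in vector, 4.95 and 4.42 in wild type, and 13.4 and 11.5 in Q311E libraries, with no overlap between lines. It fell in wild type (-0.86 ± 0.10, adjusted p = 0.0134), had the largest rise of the 38 genes in Q311E against wild type (1.24 ± 0.10, adjusted p = 0.00412), and gave 0.38 ± 0.10 for Q311E against vector (adjusted p = 0.0649). EDEM1, which handles mannose-trimmed glycoproteins, had 13.2 and 13.5 FPKM in vector, 8.98 and 8.69 in wild type, and 14.8 and 11.5 in Q311E libraries. It fell in wild type (-0.55 ± 0.12, adjusted p = 0.0458) and was higher in Q311E than in wild type (0.52 ± 0.12, adjusted p = 0.0335). Both EDEM1 calls were lost without a filter on low values (adjusted p = 0.121 and 0.0855) and with TPM scaling (0.112 and 0.0781), the first also with median scaling (0.055), with quantile normalization (0.0611) and with no trend in the variance prior (0.0524), and the second with only those 2 groups in the fit (0.0858). OS9, a lectin that delivers substrates to the ligase, had 31.4 and 35.2 FPKM in vector, 31.1 and 30.2 in wild type, and 43.3 and 50.6 in Q311E libraries. OS9 was called in the Q311E line against vector (0.48 ± 0.11, adjusted p = 0.0368) and against wild type (0.60 ± 0.11, adjusted p = 0.0178). The call against vector was lost without a filter on low values (0.0845), with median scaling (0.0525) and with only those 2 groups in the fit (0.116). SEL1L, SYVN1, DERL1 and DERL2, the core of the ligase and channel, were called in no comparison, with differences from -0.28 to 0.43.

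Translocation genes, which bring new proteins into the endoplasmic reticulum, changed little between Q311E and wild type. All 7 differences lay between -0.34 and 0.16 there, with a median of 0.06. SSR1, a subunit of the translocon-associated complex, had 14.1 and 13.7 FPKM in vector, 18.7 and 18.3 in wild type, and 19.5 and 19.1 in Q311E libraries, and rose in both lines against vector (0.39 ± 0.07, adjusted p = 0.0273, and 0.45 ± 0.07, adjusted p = 0.0153). SPCS2, a subunit of the signal peptidase, had 58.9 and 61.9 FPKM in vector, 44.7 and 44.9 in wild type, and 41.9 and 47.6 in Q311E libraries, and fell in both (-0.42 ± 0.09, adjusted p = 0.0411, and -0.43 ± 0.09, adjusted p = 0.0319). These 2 thus stood apart from vector in both lines, in opposite directions. The wild-type call of SSR1 was lost without a filter on low values (adjusted p = 0.0523) and with TPM scaling (0.0592). The wild-type call of SPCS2 was lost in both of these settings as well, and its Q311E call without the filter (0.0678). SSR3, SRP19 and the channel subunits SEC61A1, SEC61B and SEC61G were not called in the limma fit, with 0.871 to 1.73 FPKM for SRP19, the least abundant, and 139.5 to 192 for SSR3, the most abundant.

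The 11 genes with ERSE or ERSE-II in their windows were CALR, CANX, CRELD2, ERO1B, HERPUD1, HSP90B1, HSPA5, HYOU1, PDIA6, SDF2L1 and XBP1. In wild type against vector 7 of these 11 fell and 0 rose, with a median of -0.47, and 5 of the 25 genes with neither motif fell and 1 rose, with a median of -0.16. Of all genes tested 8.76% fell and 3.54% rose. In Q311E against wild type 8 of the 11 rose, with a median of 0.53, and 8 of the 25, with a median of 0.21, and 0 fell in either set, beside 17.5% and 10.1% of all genes tested. In Q311E against vector the medians were 0.02 in both sets, with 1 rise and 3 falls among the 11 and 4 rises and 1 fall among the 25, beside 8.67% and 9.28% of all genes. MANF, among the largest changes, had neither motif in its window. These counts are a description, and the difference between the sets was not tested.

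The Q311E libraries differed from each other more than the other pairs did. The median absolute log2 difference between A and B over the 38 genes was 0.16 for Q311E, 0.06 for vector and 0.05 for wild type, and 26 of 38 genes were higher in Q311E A than in Q311E B. HYOU1 (A above B by 0.62 on the log2 scale), CANX (0.51), HSPA13 (0.48), DNAJB11 (0.41) and HSPA5 (0.40) differed the most in that direction. PDIA4 (-0.32) and OS9 (-0.22) were the furthest the other way. Each gene has 1 SE for all 3 comparisons, whichever pair of lines is compared.

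HSPA5 and SEC61B both lie on chromosome 9 and are described here beside their neighbours. The 30 tested genes nearest to HSPA5 (15 on each side) had a median log2 difference of 0.55 in wild type against vector and 0.47 in Q311E against vector, and those nearest to SEC61B 0.49 and 0.43. HSPA5 itself stood at -0.27 and 0.64, and SEC61B at -0.15 and 0.01. In Q311E against wild type the neighbours of HSPA5 had a median of 0.01, while HSPA5 stood at 0.91. The neighbours of the other 36 genes had medians between -0.35 and 0.13 in both comparisons with vector. The part of the shifted stretch in the HSPA5 difference from vector was not tested.

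**Figure D4:**
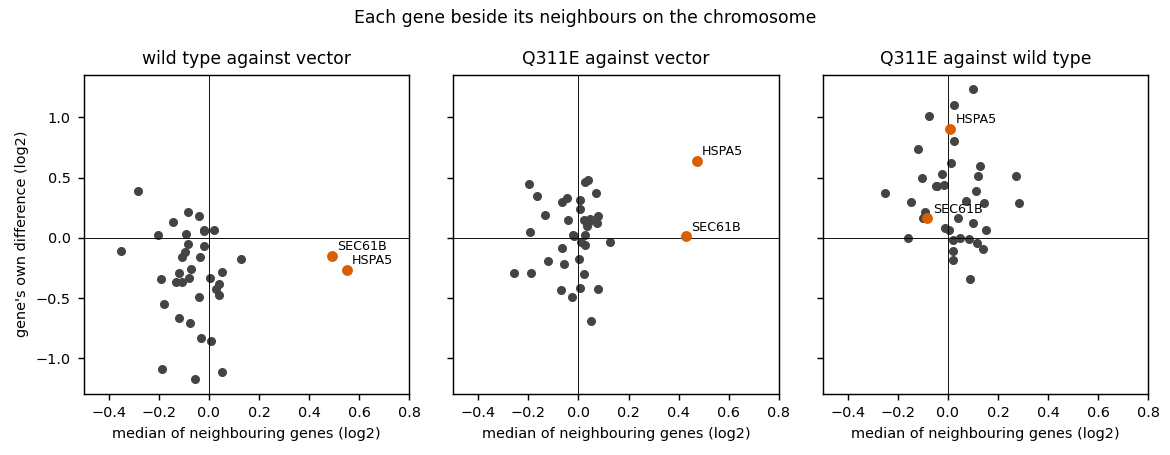
Each of the 38 genes by its own log2 difference (vertical axis) and the median log2 difference of its nearest tested genes on the chromosome (horizontal axis) in the 3 comparisons. HSPA5 and SEC61B, in orange, are the only points past 0.4 on the horizontal axis in the comparisons with vector, and neither is in the comparison of Q311E with wild type.

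Genes of the same pathway outside the 38 were counted from 6 further lists. Of all genes tested, 3.54% rose and 8.76% fell in wild type against vector, 8.67% and 9.28% in Q311E against vector, and 17.5% and 10.1% in Q311E against wild type. In the PERK and ATF4 branch (11 tested of 12), 6 fell and 2 rose in wild type against vector, 4 fell and 3 rose in Q311E against vector, and 4 rose and 1 fell in Q311E against wild type. As shares of the 11 these are 54.5% and 18.2%, 36.4% and 27.3%, and 36.4% and 9.09%. ATF4 itself fell against vector in both lines. DDIT3, the stress factor CHOP, averaged 9.86 FPKM in vector, 5.45 in wild type and 11.0 in Q311E. It fell in wild type against vector (log2 -0.75, adjusted p = 0.016) and was higher in Q311E than in wild type (log2 0.91, adjusted p = 0.00705). CHAC1, which breaks down glutathione, fell in both lines against vector (-1.44 and -1.41, adjusted p = 0.00878 and 0.00665), whereas the feedback phosphatase subunit PPP1R15A rose in both (0.43 and 0.84, adjusted p = 0.0256 and 0.0056). Members of this branch thus moved in both directions against vector. In Q311E against wild type the 1 fall was TRIB3, a share of 9.09%, close to the 10.1% over all genes.

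Of 15 other regulators tested, 1 rose and 1 fell in wild type against vector, 0 rose and 1 fell in Q311E against vector, and 3 rose (20%) and 2 fell (13.3%) in Q311E against wild type. MBTPS1, the protease that first cuts ATF6, was among the 3 (log2 0.43, adjusted p = 0.0241, and 0.0508 with median scaling). BLOC1S1, a known target of IRE1 cleavage, fell in wild type (-0.79, adjusted p = 0.019, and 0.0612 without a filter on low values). Of 35 other folding and degradation genes, 3 rose and 5 fell, 2 rose and 4 fell, and 7 rose and 2 fell in the 3 comparisons in that order. That is 8.57% and 14.3%, 5.71% and 11.4%, and 20% and 5.71%, with the rises against wild type close to the 17.5% over all genes. SIL1, an exchange factor for BiP, fell in both lines against vector (-0.73 and -0.47, adjusted p = 0.0149 and 0.0289). ERP44, a thioredoxin-like protein that retains ERO1, rose in both (0.53 and 0.99, adjusted p = 0.0316 and 0.00665). The ubiquitin ligase MARCHF6 fell in wild type (-0.51, adjusted p = 0.0173) and was higher in Q311E than in wild type (0.64, adjusted p = 0.0069).

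Of 33 other translocation and N-glycosylation genes, 1 rose and 1 fell in each comparison with vector, and 3 rose (9.09%) and 4 fell (12.1%) in Q311E against wild type. Of 23 genes of transport to the Golgi, 2 rose and 1 fell, 3 rose and 1 fell, and 4 rose and 1 fell, and the last 4 are 17.4% of the list beside 17.5% of all genes. The heat shock list (17 tested), chosen as cytosolic, also holds HSPD1 and HSPE1, a chaperone and co-chaperone of mitochondria. By its counts it ran the other way from the 38 genes in the comparison of Q311E with wild type. It had 1 rise, 5 falls (29.4% beside 10.1% of all genes), HSPD1 and HSPE1 among them, and a median of -0.44. HSPE1 fell in Q311E against both others (-1.6 against vector, adjusted p = 0.00177, and -0.51 against wild type, adjusted p = 0.012). None of these differences between lists was tested.

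The 5 tested genes whose log2(FPKM + 1) was most like that of XBP1 over the 6 libraries were GSTM1, FAM120AOS, PTK7, RAP1A and COL6A2, with Pearson correlations from 0.994 to 0.998. GSTM1, a glutathione transferase, had 5.80 and 5.75 FPKM in vector, 0.576 and 0.803 in wild type, and 3.48 and 2.82 in Q311E libraries. PTK7, a receptor-like membrane protein, had 14.4 and 14.8, 2.91 and 3.11, and 8.46 and 7.03. The 6 points form 3 pairs from 3 lines, so these correlations describe a shared order of lines, and 0 of the 5 is among the 38.

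For 21 of the 38 genes GENCODE 29 places an exon of another gene over part of their exons, and the use of strand in counting is not given in the sources used here, so reads of such pairs may be shared. Among them are CALR, HSP90B1, CRELD2, PDIA6, EDEM1, OS9 and SSR1, and SYVN1 overlaps FAU on the same strand. XBP1, PDIA3, SSR1 and SPCS2 have named pseudogene copies (1, 2, 2 and 4), which leave their levels less certain. XBP1, MANF, SDF2L1, HERPUD1, HSPA5, CREB3L2 and ERO1B had 0 such overlaps.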

How the data were processed

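The deposited table held FPKM values for 30178 human Ensembl gene IDs in 6 libraries, made by the authors and used as deposited. Per the labels' protocols, a QIAGEN extraction of total RNA fed standard Illumina library preparation. The submitters' processing notes list CASAVA, and as builds mm8 and mm9 (mouse), without saying what each was used for, whereas the gene IDs are human. The sources used here name no aligner, counter or annotation. A name table matched 29993 IDs. Positions and exon lengths came from GENCODE 29 (GRCh38).

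Two-sided tests on log2(FPKM + 1) were made with limma 3.58.1 (R 4.3.3) for the 11481 genes with a mean of at least 1 FPKM, all 38 members among them. The 3 groups shared 1 fit, with 3 residual degrees of freedom and a variance prior that followed mean level. Benjamini-Hochberg adjustment ran over all 11481 genes. FPKM steps gave whole reads, within 0.001 read (or 2e-07 of larger numbers), for 30149 genes (99.9%). Gene lengths were fitted for those not whole at the GENCODE length, 23 members among them, and these reads served limma-voom, which called 1307, 2108 and 3411 genes in wild type against vector, Q311E against vector and Q311E against wild type. In simulated data with 200 changed genes among 11481, limma recovered 89%, 86% and 87% of the genes given a log2 change of 1, in that order. Only changes of 1 or 2 were simulated, so recovery of smaller ones, like most of those called among the 38 members, is not known. In the real libraries the SD of the difference between A and B was 0.436 for Q311E, 0.192 for vector and 0.145 for wild type. Whether the simulated rates hold under so unequal a spread was not tested.

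The members, lists, tests and alternatives were chosen with earlier results of these data known. Values in every library were given for XBP1, CREB3L2 and the 3 sensors, for the 6 largest called rises and falls in each comparison, and for others to account for the role groups. From each further list up to 3 called genes by smallest p could be named. Likeness to XBP1 was the Pearson correlation. Motif searches used Python 3.11.15 and pandas 2.3.3, and figures matplotlib 3.10.9.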

Additional observations from a re-analysis of the deposited data

How the results depend on the processing

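Each count of called members, higher and lower, is given here for wild type against vector (1 and 12), Q311E against vector (5 and 4) and Q311E against wild type (17 and 0). Without a filter on low values the counts were 0 and 6, 1 and 2, and 7 and 0. Of all genes 0.348% and 0.954%, 2.12% and 1.89%, and 3.8% and 1.53% were called there. With TPM scaling the counts were 0 and 7, 2 and 2, and 10 and 0. The shares of all genes were then 2.35% and 6.54%, 7.67% and 5.5%, and 15% and 6.19%. With only the 2 groups compared the counts were 3 and 22, 0 and 0, and 6 and 0. The shares of all genes were then 17.8% and 28.6%, 1.28% and 1.07%, and 6.28% and 2.23%. In those fits limma gave 8 higher and 6 lower for Q311E against vector at an unadjusted p under 0.05. Median scaling gave 3 and 6 for Q311E against vector, beside 7.48% and 11.1% of all genes. It gave 1 lower for Q311E against wild type, as did a pseudocount of 0.1, a mean FPKM of at least 5, limma-voom and removal of the trend with exon length, the last chosen after seeing the data. That gene was SEC61A1 each time. Leaving out 1 library gave 0 to 3 and 0 to 22 for wild type against vector, 0 to 13 and 0 to 11 for Q311E against vector, and 0 to 23 and 0 to 4 for Q311E against wild type. The median for Q311E against vector was -0.0294 to 0.12 in those fits. ERN1 in Q311E against wild type changed sign in 2 of them, from -0.0395 to 0.0323 (0.0246 without wild type B). Under the other alternatives, the 34 named member results gave 366 values, of which 323 kept their side of the threshold, 40 lost a call, 3 gained one and 0 changed sign. The 128 results for other members and listed genes gave 1396 values, of which 1220 kept their side, 135 lost a call, 23 gained one and 18 changed sign.

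With the letter A or B as a replicate block the counts were 1 and 10, 4 and 4, and 17 and 0. The shares of all genes were then 3.26% and 8.06%, 8.2% and 8.71%, and 17.5% and 10.9%. The labels do not say that a letter marks a shared batch, and the letters were not taken to pair the libraries, since 2 of the 3 correlations of A minus B differences across genes were under 0.1: -0.03 (vector and wild type), 0.39 (vector and Q311E) and -0.01 (wild type and Q311E). ERO1B and SRP19, with as few as 110 and 195 reads in a library, are the members most limited by depth.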
